A study of Mus musculus with 6 samples.

Results

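The 43 genes described here encode the T cell receptor complex, its coreceptors and costimulatory receptors, the kinases, adaptors and effectors next to the receptor, the NFAT factors and the phosphatases, ligases and lipid kinases that hold the signal back. They were chosen as a list of symbols, all 43 were found among the 21233 genes of the count table, and all 43 passed the filter on low counts. RNA was sequenced from mouse Th9 cells, CD4 helper T cells named for their secretion of interleukin 9, in 3 libraries of sorafenib-treated cells (Sora) and 3 libraries of control cells that received no sorafenib (Ctrl). Sorafenib is a small molecule that inhibits RAF kinases and several receptor tyrosine kinases. The labels used here give no dose, exposure time, vehicle, mouse strain or method of differentiation, and they number the replicates without a word on separate cultures or animals. The p-values therefore measure the spread between these libraries alone, which may be technical.

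In a T cell, the variable chains of the receptor bind peptide on MHC molecules but have no signalling domain of their own, and the CD3 and zeta chains carry the tyrosine motifs that do. The kinase Lck, brought in by CD4 or CD8, phosphorylates those motifs, the kinase Zap70 docks on them and phosphorylates the scaffolds Lat and SLP-76, and the assembled adaptors activate phospholipase C, RAS and the complex of Bcl10 and Malt1. Calcium then activates calcineurin and so NFAT, while phosphatases, ubiquitin ligases and diacylglycerol kinases limit the response.

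The libraries held 36981476 to 38126521 counts, and a floor of 3 counts equalled 0.0766 to 0.0871 CPM (counts relative to library size, scaled with TMM factors, a trimmed-mean correction between libraries). Counts of 0 were kept as 0 in the CPM given. Control replicate 2 stood apart from the other control libraries. Its median absolute log2 difference from the mean of the other control libraries was 0.22, against 0.17 and 0.12 for control replicates 1 and 3 and 0.07 to 0.10 for the sorafenib libraries. It was the farthest of the 3 control libraries for 24 of the 43 genes (55.8%) and for 52% of all 13255 tested genes. Of 8 defining T cell markers 6 were in the table, and together they held 1474 to 1497 CPM in sorafenib cells and 1641 to 1711 CPM in control cells, so the label of a T cell fits its markers, 4 of which are also among the 43 genes. Markers of natural killer cells, macrophages, mast cells, γδ T cells and erythroid cells or platelets summed to at most 7 CPM per list in any library, and the 2 of them that passed the filter, Adgre1 and Itga2b, had adjusted p of 0.12 and 0.903. The table held 4 of 6 natural killer, 6 of 8 macrophage, 2 of 6 mast cell and 1 of 6 γδ T cell markers, the last being Sox13. Low sums over so few markers cannot show that mast cells or γδ T cells were absent. All 6 tested B cell markers were higher with sorafenib, and the 7 in the table summed to 31.6 to 34.6 CPM in sorafenib cells and 8.04 to 16.8 CPM in control cells, with Ms4a1 near 0 in both groups. Both tested dendritic cell markers, Zbtb46 and Flt3, were higher (list sums of 7.17 to 9.96 CPM with sorafenib and 2.96 to 4.41 CPM in control), 2 of 3 neutrophil markers were lower (2.58 to 2.96 and 9.35 to 11.3 CPM) and 1 of 3 stromal and epithelial markers was lower (1.91 to 2.43 and 4.26 to 5.44 CPM). The part of such cells in the results below was not tested, and in bulk RNA fewer cells of a type cannot be told apart from less RNA per cell.

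Sorafenib cells had less transcript of the receptor's signalling chains Cd3e, Cd3g and Cd247 and of the receptors Cd2, Cd28 and Cd6. Also lower were the adaptor Themis, Lck, Prkcq, Malt1 and the negative regulator Cblb. Sorafenib cells had more transcript of the adaptor Lcp2 and of Nfatc3, Cd44 and Cd8b1. More transcript was also found for 5 of the 10 listed negative regulators, Ptpn6, Ptpn22, Csk, Pag1 and Ubash3a. Of the 43 genes, 9 rose and 11 fell at an adjusted p under 0.05 (edgeR quasi-likelihood test, Benjamini-Hochberg over all tested genes), where 8.51% of all 13255 tested genes rose and 9.43% fell, 17.9% in all. The changes were small. Folds ran between 1.21 and 1.51 among the rises and between 1.18 and 1.88 among the falls. The median log2 fold change was 0.05 over the 43 genes and -0.01 over all tested genes. In TMM-scaled CPM the sorafenib and control libraries did not overlap for 15 genes that were higher and 14 that were lower. The shares of all tested genes were 18.3% and 18%, 36.3% in all. This separation depends on the scaling, and in FPKM the groups overlapped for Prkcq, Malt1, Cblb and Cd3d among others. Scaled by total counts alone, 12 of the 43 were called higher and 6 lower, a different split from the one above. The split over all 13255 tested genes moved the same way, to 1496 higher and 826 lower from 1128 and 1250. The counts higher and lower were 3 and 7 without sorafenib replicate 1, 7 and 7 without sorafenib replicate 2, 5 and 5 without sorafenib replicate 3, 8 and 7 without control replicate 3, and 14 and 15 without control replicate 2. Over all tested genes the share called was 9.51%, 11.4% and 9.15% without sorafenib replicates 1, 2 and 3, against 17.9% with every library. It was 11.7% without control replicate 3. Leaving out control replicate 2 raised the share called over all tested genes to 31.8%, from 17.9%. The calls gained that way, given below, are therefore not particular to these genes.

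**Figure D1:**
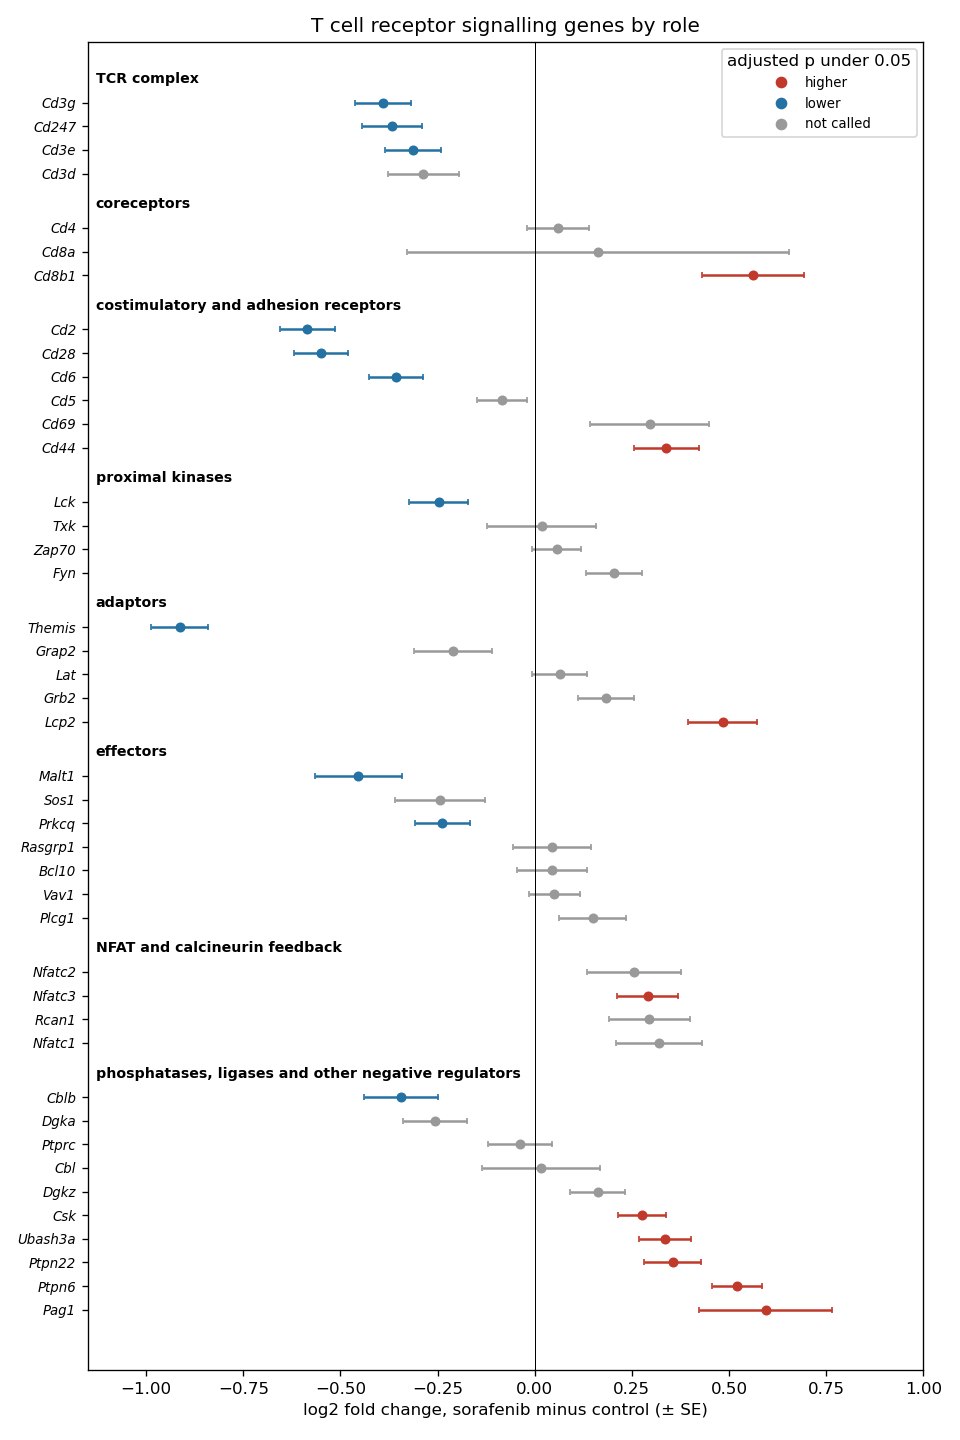
Log2 fold change (sorafenib minus control) with its standard error for each of the 43 genes, grouped by role, from 3 libraries a group. Filled colours mark the 9 genes called higher and the 11 called lower; the 4 chains of the receptor complex lie left of 0 and all 4 NFAT and calcineurin feedback genes lie right of it.

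The receptor complex was lower in all 4 of its measured chains, and 3 passed the test, where 9.43% of all tested genes were called lower. Cd3g, the γ chain that pairs with CD3ε, had 140.5, 153 and 149 CPM in sorafenib cells, against 184, 208 and 188 CPM in control cells. It fell 1.31-fold (log2 fold change -0.39 ± 0.07 SE, edgeR adjusted p = 0.00437) and was called under all 17 alternatives. Cd247, the ζ chain with the largest share of the tyrosine motifs, had 165, 162 and 157 CPM in sorafenib cells, against 186, 219 and 218 CPM in control cells, 1.29-fold lower (adjusted p = 0.00868). Cd3e, whose product joins both CD3 pairs, had 161, 171 and 168 CPM in sorafenib cells, against 210.0, 192 and 219 CPM in control cells, 1.24-fold lower (adjusted p = 0.0129). Every sorafenib library lay below every control library for each of these chains. Cd3d, the δ chain, had 164, 184 and 178 CPM in sorafenib cells and 219, 237 and 187 CPM in control cells and missed the threshold (log2 fold change -0.29 ± 0.09 SE, adjusted p = 0.0543). Its groups did not overlap in CPM, but in FPKM sorafenib replicate 2 (126) lay above control replicate 3 (123). Over the alternatives the adjusted p ran from 3.69e-05 to 0.203 for Cd3e, above the threshold without any 1 sorafenib library, without control replicate 3 and with total counts or FPKM, and from 0.000354 to 0.0657 for Cd247, above it without sorafenib replicate 3 and on unfiltered FPKM. For Cd3d it ran from 0.0158 to 0.248, below the threshold without control replicate 2 or 3 among others.

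Relative to Cd3e, the other chains differed between the groups by less than the spread between libraries. The ratio of Cd3g to Cd3e counts was 0.875, 0.896 and 0.883 in sorafenib cells and 0.874, 1.08 and 0.86 in control cells, a log2 difference of -0.08 (exact two-sided permutation test over 6 libraries, p = 1, where the smallest p possible is 0.1). Cd3d to Cd3e differed by 0.03 and Cd247 to Cd3e by -0.05 on the log2 scale (exact permutation p = 0.8 for each, 1 when adjusted over the 8 ratios computed). These differences changed sign without control replicate 2 for Cd3g (0.03) and Cd247 (0.04) and without control replicate 3 for Cd3d (-0.11). Per length, in FPKM, the chains stood at 148 ± 7.4 for Cd3g, 119 ± 7.65 for Cd3d, 113 ± 4.35 for Cd3e and 23.7 ± 0.564 for Cd247 in sorafenib cells, and at 184 ± 3.18, 138 ± 12.9, 133 ± 14.6 and 29 ± 2.04 in control cells (SD, n = 3 each). The order was the same in both groups, but Cd3d and Cd3e differed by less than the SD of Cd3d in each group. The annotated exons of Cd247 share 64% of their bases with Pou2f1 on the opposite strand, and the strand setting of the counting is not given. Pou2f1 itself held 25 ± 0.73 CPM in sorafenib cells and 24.1 ± 4.12 CPM in control cells (adjusted p = 0.801).

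Cd3g, Cd3d and Cd3e are consecutive genes of chromosome 9, with Cd3g and Cd3d transcribed away from each other. Their promoter windows, 250 bases before to 50 after the start in RefSeq's GRCm38.p6 annotation, are shown because the genes are neighbours and Cd3g and Cd3e were called lower, while Cd3d missed the threshold, and they lie at chr9:44980382-44980681 (minus strand, Cd3g), chr9:44981536-44981835 (plus strand, Cd3d) and chr9:45009562-45009861 (minus strand, Cd3e). Capitals mark, on either strand, matches to the NFAT core GGAAA, to the E protein motif CAGGTG and to the RUNX motif TGTGGT.
Cd3g: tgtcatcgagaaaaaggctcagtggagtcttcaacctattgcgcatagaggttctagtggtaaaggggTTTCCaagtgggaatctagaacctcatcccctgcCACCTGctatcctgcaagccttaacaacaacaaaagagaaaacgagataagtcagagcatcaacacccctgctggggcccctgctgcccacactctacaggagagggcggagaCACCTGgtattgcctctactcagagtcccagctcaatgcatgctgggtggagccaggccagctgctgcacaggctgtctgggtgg
Cd3d: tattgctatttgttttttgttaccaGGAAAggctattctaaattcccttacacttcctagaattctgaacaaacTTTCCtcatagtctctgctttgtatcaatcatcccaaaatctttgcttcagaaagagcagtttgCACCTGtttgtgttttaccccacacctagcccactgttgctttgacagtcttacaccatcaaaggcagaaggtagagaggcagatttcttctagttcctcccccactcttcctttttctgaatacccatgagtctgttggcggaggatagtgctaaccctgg
Cd3e: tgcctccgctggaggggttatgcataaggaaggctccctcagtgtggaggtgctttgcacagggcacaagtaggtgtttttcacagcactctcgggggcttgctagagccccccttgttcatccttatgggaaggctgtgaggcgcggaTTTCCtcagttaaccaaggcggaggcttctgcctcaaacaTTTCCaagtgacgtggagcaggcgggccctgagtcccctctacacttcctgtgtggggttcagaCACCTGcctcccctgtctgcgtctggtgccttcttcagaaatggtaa
Each of the 3 windows held the NFAT core and the E protein motif and none held the RUNX motif. Over all 32851 RefSeq windows of this length, 61.3% held the NFAT core, 20.2% the E protein motif and 16.8% the RUNX motif. Among the 50 windows of the 34 genes of the list that matched by symbol, the shares were 70%, 32% and 12%. A match to these letters is a description and no evidence of binding.

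Of the coreceptors, Cd4, which holds Lck near the receptor in helper cells, had 487, 508 and 493 CPM in sorafenib cells and 499, 434 and 494 CPM in control cells. Its groups overlapped and the difference did not pass (log2 fold change 0.06 ± 0.08 SE, edgeR adjusted p = 0.671, and 0.324 to 1 over the alternatives). Cd8a, the chain that any CD8 coreceptor needs, stood near the floor of detection, with 0.386, 0.391 and 0.511 CPM in sorafenib cells and 0.188, 0.348 and 0.613 CPM in control cells (adjusted p = 0.863). Cd8b1, the β chain that pairs with CD8α, had 10.7, 9.1 and 8.38 CPM in sorafenib cells and 5.98, 6.74 and 6.4 CPM in control cells. It rose 1.48-fold with no overlap (log2 fold change 0.56 ± 0.13 SE, adjusted p = 0.014), and the call was lost without sorafenib replicate 1 (adjusted p 0.0026 to 0.0779 over the alternatives). Counts of Cd8b1 exceeded those of Cd8a by 16.4 to 27.7 times in sorafenib libraries and by 10.4 to 31.9 times in control libraries, ranges that overlap. The ratio of Cd8b1 to Cd4 was 0.022, 0.0179 and 0.017 in sorafenib cells and 0.012, 0.0155 and 0.0129 in control cells, apart in all libraries at the smallest exact permutation p the design allows (p = 0.1, 0.4 adjusted over 8 ratios). Among 5 tested markers of CD8 T cells, Cd8b1 was the one called, and the list summed to 12.2 to 14.2 CPM in sorafenib cells and 7.77 to 10.2 CPM in control cells.

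Among the 6 costimulatory, adhesion and activation receptors, 3 fell and 1 rose, where 9.43% of all tested genes fell and 8.51% rose. Cd2, an adhesion receptor that binds CD48 in mice, had 293, 314 and 297 CPM in sorafenib cells, against 444, 471 and 439.7 CPM in control cells, 1.5-fold lower (log2 fold change -0.59 ± 0.07 SE, edgeR adjusted p = 0.000359). Cd28, the main costimulatory receptor, had 185, 209 and 204 CPM in sorafenib cells, against 291, 292 and 292 CPM in control cells, 1.46-fold lower (adjusted p = 0.000482). In TMM-scaled CPM the control libraries agreed closely for Cd28, with an SD of 0.733 CPM. In FPKM, which has no TMM factor, they stood farther apart, at 64.5, 59.2 and 63.6 (SD 2.83). Both calls held under all 17 alternatives. Cd6 and Cd5 are neighbouring scavenger receptor genes whose products damp receptor signalling. Cd6 had 214, 213 and 209 CPM in sorafenib cells, against 278, 252 and 283 CPM in control cells, 1.28-fold lower (adjusted p = 0.00554), a call lost on unfiltered FPKM alone (adjusted p = 0.118, the highest of a range starting at 5.89e-06). Cd5 had 226, 228 and 221 CPM in sorafenib cells and 243, 229.5 and 244 CPM in control cells and did not pass (log2 fold change -0.08 ± 0.06 SE, adjusted p = 0.42).

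Cd44, a hyaluronan receptor kept high by activated and memory T cells, had 248, 214 and 240.1 CPM in sorafenib cells, against 169.7, 200.3 and 185 CPM in control cells. It rose 1.26-fold (log2 fold change 0.34 ± 0.08 SE, edgeR adjusted p = 0.0187), and the call was lost without sorafenib replicate 1 or 3 and without control replicate 1 or 3 (adjusted p 8.96e-05 to 0.106 over the alternatives). Cd69, a receptor induced early after stimulation, had 118, 96.1 and 111 CPM in sorafenib cells and 68.4, 112 and 84.9 CPM in control cells. The groups overlapped through control replicate 2, and Cd69 passed without that library (adjusted p = 0.00516, against 0.225 with it and up to 0.512 elsewhere). Per length, Cd2 was the most abundant of the 43 transcripts, at 270.3 ± 11.5 FPKM in sorafenib cells and 384 ± 6.47 FPKM in control cells.

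**Figure D2:**
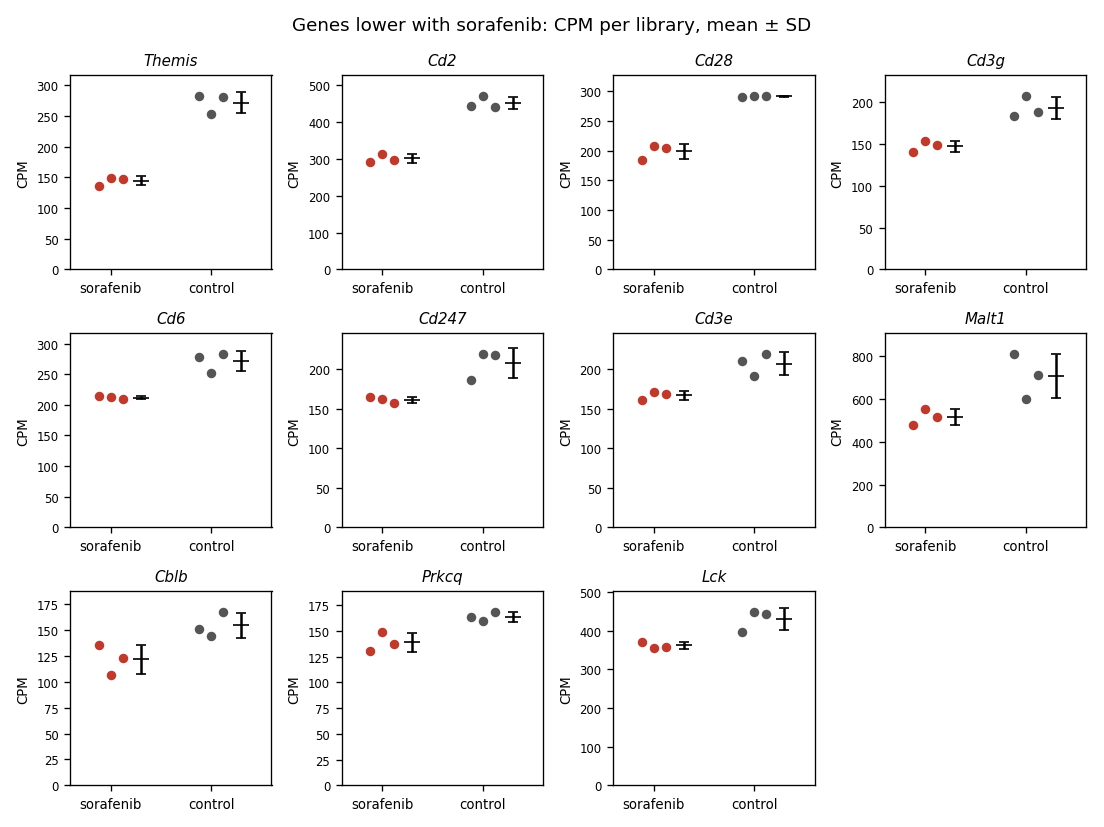
CPM in each library (points), with the mean and SD beside them, of the 11 genes called lower, sorafenib left and control right, ordered by adjusted p. The groups do not overlap in any panel on this TMM-scaled measure, but in FPKM, which has no TMM factor, those of Prkcq, Malt1 and Cblb do. Themis shows the largest fold of the 11 and Prkcq and Lck the smallest.

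Lck was the 1 gene called of the 4 kinases, where 17.9% of all tested genes were called. It had 372, 357 and 358 CPM in sorafenib cells, against 397, 449 and 443 CPM in control cells, 1.19-fold lower (log2 fold change -0.25 ± 0.08 SE, edgeR adjusted p = 0.0451). The call held in 7 of 17 alternatives (adjusted p 0.00707 to 0.195) and was lost, among others, without any 1 sorafenib library, without control replicate 3, with total counts, with no filter and on FPKM. Fyn, the second SRC kinase of T cells, had 146, 129.9 and 144 CPM in sorafenib cells and 119.9, 117 and 127 CPM in control cells. Fyn libraries did not overlap, in the direction opposite to Lck, but it missed the threshold (log2 fold change 0.20 ± 0.07 SE, adjusted p = 0.0783). Fyn passed without control replicate 2 (adjusted p = 0.0277, range up to 0.285), with total counts and, just, on filtered log2(FPKM + 1). Zap70 had 264, 260.1 and 265 CPM in sorafenib cells and 249, 262 and 248 CPM in control cells (adjusted p = 0.606). Txk, a TEC-family kinase, was low, at 8.27, 8.76 and 9.04 CPM in sorafenib cells and 6.97, 9.84 and 8.95 CPM in control cells (adjusted p = 0.953). Neither was called under any alternative. Per length, Lck stood at 163 ± 2.99 FPKM in sorafenib cells and 184 ± 8.73 FPKM in control cells, Zap70 at 90.5 ± 0.736 and 82.5 ± 1.72 FPKM, Fyn at 13.7 ± 0.778 and 11.3 ± 0.897 FPKM and Txk at 2.67 ± 0.132 and 2.5 ± 0.338 FPKM, so the order Lck, Zap70, Fyn, Txk was the same in both groups.

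Of the 5 adaptors, 1 fell and 1 rose, where 9.43% of all tested genes fell and 8.51% rose. Themis, which recruits the phosphatase SHP1 to the receptor and is needed for thymocyte selection, had the largest fold of the 43 genes. It stood at 136, 149 and 148 CPM in sorafenib cells, against 283, 253 and 281 CPM in control cells, 1.88-fold lower (log2 fold change -0.91 ± 0.07 SE, edgeR adjusted p = 3.15e-05, and 4.65e-25 to 0.00712 over the alternatives). Lcp2, which encodes SLP-76, the scaffold that Zap70 phosphorylates, had 259.9, 266 and 264 CPM in sorafenib cells, against 192, 164 and 209 CPM in control cells. It rose 1.4-fold (log2 fold change 0.48 ± 0.09 SE, adjusted p = 0.00383) and was called under all 17 alternatives. Its partner scaffold Lat (249.9 ± 8.51 and 239 ± 14.1 CPM in sorafenib and control cells) and the linker Grb2 (168 ± 9.61 and 148 ± 8.11 CPM) did not pass, with adjusted p of 0.597 and 0.115. Grap2, which encodes GADS, the bridge between Lat and SLP-76, had 270.1 ± 21.4 CPM in sorafenib cells and 312 ± 39.7 CPM in control cells (adjusted p = 0.185). Without control replicate 2, Grap2 was called lower (adjusted p = 0.00134, range up to 0.642) and Grb2 higher (adjusted p = 0.00845, range up to 0.341). Grb2 was also called higher with total counts, on filtered FPKM and with the trend on gene length removed.

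Among the 7 effectors, 2 fell and 0 rose by edgeR, with 0 higher at an unadjusted p under 0.05 and 0 by DESeq2 or limma-voom. Of all tested genes, 9.43% fell and 8.51% rose by edgeR. Malt1, a paracaspase that acts with Bcl10, had 480.1, 552 and 518 CPM in sorafenib cells, against 811, 602 and 710.2 CPM in control cells. It fell 1.37-fold (log2 fold change -0.45 ± 0.11 SE, edgeR adjusted p = 0.0174), a call lost without sorafenib replicate 1 or 3, without control replicate 3, and with total counts or FPKM (adjusted p 6.55e-06 to 0.213). Its partner Bcl10 had 63.6, 57.5 and 60.7 CPM in sorafenib cells and 53.2, 66.1 and 57 CPM in control cells (adjusted p = 0.79). Prkcq, the protein kinase C θ of T cells, had 130.5, 149 and 137 CPM in sorafenib cells, against 163, 159 and 169 CPM in control cells, 1.18-fold lower (adjusted p = 0.0413). The Prkcq call held in 6 of 17 alternatives (adjusted p 0.003 to 0.316) and was lost, among others, without any 1 library other than control replicate 2, with total counts, with no filter and on FPKM. The phospholipase gene Plcg1 and the exchange factor genes Vav1, Sos1 and Rasgrp1 did not pass (adjusted p from 0.183 to 0.817). Sos1, an activator of RAS, had 42.6, 39.5 and 43.3 CPM in sorafenib cells and 51, 40.3 and 57.1 CPM in control cells, and was called lower without control replicate 2 (adjusted p = 0.000509, range up to 0.634).

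All 4 genes of the NFAT group were higher in every sorafenib library than in any control library, as were 18.3% of all tested genes, and Nfatc3 passed the test. Nfatc3 had 182, 169.8 and 175 CPM in sorafenib cells, against 139, 133 and 159 CPM in control cells, 1.22-fold higher (log2 fold change 0.29 ± 0.08 SE, edgeR adjusted p = 0.028). That call was lost without any 1 sorafenib library, without control replicate 1 and on unfiltered FPKM (adjusted p 0.00527 to 0.131). Nfatc1, whose short form is induced by NFAT itself, had 96.2, 94.9 and 94.7 CPM in sorafenib cells and 81, 61.5 and 86.6 CPM in control cells (log2 fold change 0.32 ± 0.11 SE, adjusted p = 0.074). Nfatc2, a form present in resting T cells, had 161, 148 and 155 CPM in sorafenib cells and 144, 101 and 144 CPM in control cells (log2 fold change 0.26 ± 0.12 SE, adjusted p = 0.182). Rcan1, an inhibitor of calcineurin and a target of NFAT, had 20.2, 18.3 and 17.6 CPM in sorafenib cells and 13.5, 16.4 and 15.8 CPM in control cells (log2 fold change 0.30 ± 0.11 SE, adjusted p = 0.0815). Control replicate 2 was the lowest library for all 3 NFAT factors but the highest of the controls for Rcan1, and without it Nfatc1 (adjusted p = 0.0175, range up to 0.209) and Rcan1 (adjusted p = 0.0138, range up to 0.278) passed. Nfatc1 also passed by DESeq2, with no filter and, just, without control replicate 3, among others. With the trend on gene length removed, Nfatc1 (edgeR adjusted p = 0.00991), Nfatc2 (0.0292) and Rcan1 (0.0354) passed, where 24.1% of all tested genes were called. Rcan1 passed with total counts and on filtered FPKM as well. The ratio of Nfatc1 to Nfatc2 differed by 0.06 on the log2 scale (exact permutation p = 0.4, 1 adjusted over 8 ratios).

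Among the 10 phosphatases, ligases and other negative regulators, 5 rose and 1 fell, 50% and 10%, where 8.51% and 9.43% of all tested genes did. Ptpn6, which encodes SHP1, a tyrosine phosphatase of haematopoietic cells, had 229, 223 and 216 CPM in sorafenib cells, against 149, 159.9 and 156 CPM in control cells. It rose 1.43-fold (log2 fold change 0.52 ± 0.06 SE, edgeR adjusted p = 0.000437). Ubash3a, which encodes the receptor-dampening protein STS-2, had 86.5, 82.2 and 82.4 CPM in sorafenib cells, against 66, 64.5 and 68.5 CPM in control cells, 1.26-fold higher (adjusted p = 0.006). Both were called under all 17 alternatives. SHP1 is also made by B and myeloid cells, and the summed B cell markers given above were higher in the same libraries (31.6 to 34.6 CPM in sorafenib cells and 8.04 to 16.8 CPM in control cells). Of the myeloid lists, the summed dendritic cell markers were higher (7.17 to 9.96 CPM with sorafenib and 2.96 to 4.41 CPM in control). The summed neutrophil markers were lower (2.58 to 2.96 and 9.35 to 11.3 CPM), and the 1 tested macrophage marker was not called. The part of such cells in the rise was not tested.

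Csk is the kinase that places the inhibitory phosphate on Lck and Fyn, Pag1 encodes a membrane adaptor that can hold Csk, and Ptpn22 encodes a phosphatase that binds Csk and removes the activating phosphate of Lck and Fyn. Ptpn22 had 219.6, 196 and 204 CPM in sorafenib cells, against 153, 161 and 171 CPM in control cells, 1.28-fold higher (log2 fold change 0.35 ± 0.07 SE, edgeR adjusted p = 0.00754). Csk had 244, 231 and 239 CPM in sorafenib cells, against 195, 196 and 199.6 CPM in control cells, 1.21-fold higher (adjusted p = 0.0122). Pag1 had 19.4, 23.3 and 20.7 CPM in sorafenib cells, against 18, 10.3 and 13.7 CPM in control cells, 1.51-fold higher (adjusted p = 0.0362). For all 3 genes every sorafenib library lay above every control library, by a narrow margin for Pag1. The calls were lost without sorafenib replicate 1 for Ptpn22 (adjusted p 0.000241 to 0.0528), without sorafenib replicate 1 or 3 for Csk (0.000547 to 0.08), and without any 1 sorafenib library, without control replicate 3, with no filter and on unfiltered FPKM for Pag1 (0.00201 to 0.219).

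Cblb, a ubiquitin ligase that raises the threshold of activation, went the other way. It had 135, 107 and 123 CPM in sorafenib cells, against 151, 145 and 168 CPM in control cells, 1.27-fold lower (log2 fold change -0.34 ± 0.09 SE, edgeR adjusted p = 0.0295), a call lost without sorafenib replicate 2 or 3, without control replicate 3, and with total counts or FPKM (adjusted p 0.00364 to 0.251). Its relative Cbl spread widely in control cells, at 219.5, 130.2 and 182 CPM, around the 174, 187 and 177 CPM of sorafenib cells (adjusted p = 0.96). Dgka and Dgkz encode the diacylglycerol kinases that remove the second messenger used by Rasgrp1 and Prkcq. Dgka had 233, 262 and 248 CPM in sorafenib cells and 314, 267 and 306 CPM in control cells (log2 fold change -0.26 ± 0.08 SE, adjusted p = 0.0569), and was called lower without control replicate 2 (adjusted p = 0.000247, range up to 0.428). With all libraries, Dgka was called lower by DESeq2, with no filter and with the trend on gene length removed. Dgkz had 199.8, 193 and 195 CPM in sorafenib cells and 177, 162 and 187 CPM in control cells (log2 fold change 0.16 ± 0.07 SE, adjusted p = 0.149). The ratio of Dgka to Dgkz counts was 1.17, 1.36 and 1.27 in sorafenib cells and 1.78, 1.65 and 1.64 in control cells, a log2 difference of -0.42 with no overlap, at the smallest exact permutation p that 3 against 3 libraries allow (p = 0.1, 0.4 adjusted over 8 ratios). It lay between -0.47 and -0.36 with any 1 library left out. Ptprc, which encodes the phosphatase CD45, had 527 ± 35 CPM in sorafenib cells and 541 ± 28.3 CPM in control cells (adjusted p = 0.803), and its small difference changed sign with total counts, on FPKM and without sorafenib replicate 2.

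**Figure D3:**
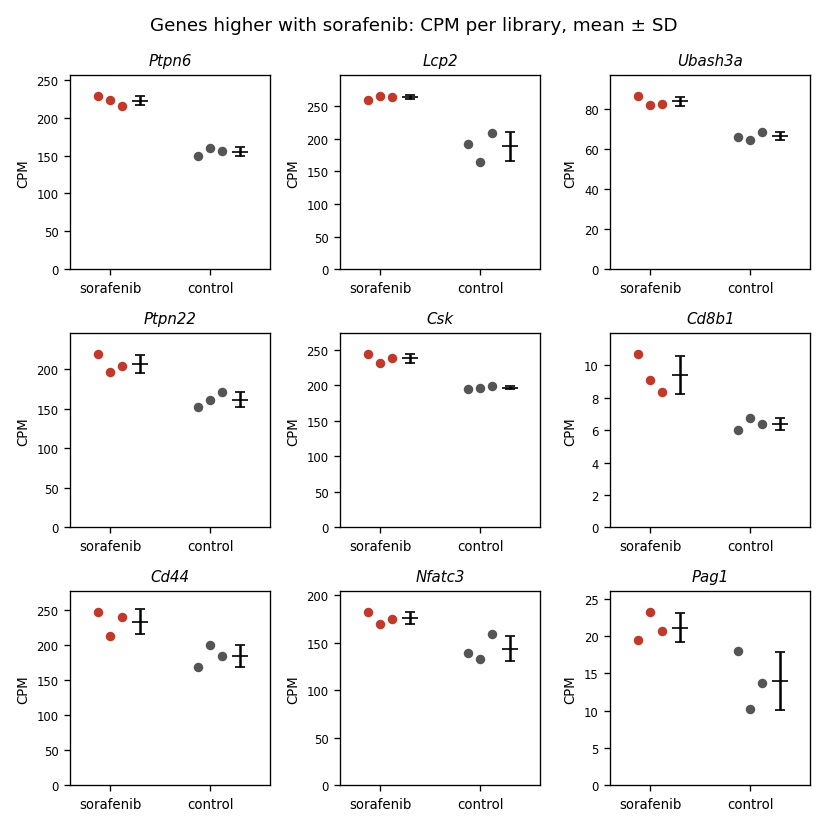
CPM in each library (points), with the mean and SD beside them, of the 9 genes called higher, sorafenib left and control right, ordered by adjusted p. The groups do not overlap in any panel; Ptpn6 and Lcp2 are well apart, and the gap is narrow for Cd44, Nfatc3 and Pag1.

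Lcp2, Ptpn6 and Ubash3a were the 3 rises called under every alternative, and each has 1 promoter window in the RefSeq table (GRCm38.p6), so their windows are given with the same motifs in capitals. They lie at chr11:34046678-34046977 (plus strand, Lcp2), chr6:124738660-124738959 (minus strand, Ptpn6) and chr17:31207816-31208115 (plus strand, Ubash3a).
Lcp2: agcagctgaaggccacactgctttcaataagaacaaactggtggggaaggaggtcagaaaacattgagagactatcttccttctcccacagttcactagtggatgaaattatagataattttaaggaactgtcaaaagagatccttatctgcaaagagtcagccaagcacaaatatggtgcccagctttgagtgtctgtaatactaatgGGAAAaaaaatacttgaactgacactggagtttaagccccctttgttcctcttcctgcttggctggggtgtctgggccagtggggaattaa
Ptpn6: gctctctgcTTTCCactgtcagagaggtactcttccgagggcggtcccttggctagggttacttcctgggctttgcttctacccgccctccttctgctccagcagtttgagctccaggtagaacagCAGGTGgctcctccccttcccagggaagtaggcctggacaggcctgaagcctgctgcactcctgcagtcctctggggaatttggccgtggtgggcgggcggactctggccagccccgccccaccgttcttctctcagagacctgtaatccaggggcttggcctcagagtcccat
Ubash3a: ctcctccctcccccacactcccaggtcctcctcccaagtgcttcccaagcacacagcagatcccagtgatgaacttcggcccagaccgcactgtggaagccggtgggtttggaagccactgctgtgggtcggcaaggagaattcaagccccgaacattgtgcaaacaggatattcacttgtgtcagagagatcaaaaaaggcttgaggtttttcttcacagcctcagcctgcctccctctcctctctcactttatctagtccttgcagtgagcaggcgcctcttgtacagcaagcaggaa
The NFAT core was found once in the Lcp2 window and once in the Ptpn6 window, the E protein motif once in the Ptpn6 window, and none of the 3 motifs in the Ubash3a window. A missing match says only that these letters do not occur in that window.

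Another 77 genes of the pathway were listed by role, of which 73 were in the table and 72 were tested. Of these 9 rose and 9 fell, 12.5% each, near the 8.51% and 9.43% of all tested genes, with a median log2 fold change of -0.0047 over the list. Their counts were 15 and 18 without control replicate 2. Rasa3, a RAS inhibitor, rose 2.01-fold, with 84.1 ± 2.23 CPM in sorafenib cells and 41.8 ± 1.56 CPM in control cells (edgeR adjusted p = 1.25e-05). Trat1, a transmembrane adaptor of the receptor, rose 2.35-fold at a low level, with 10.5 ± 0.888 and 4.46 ± 0.412 CPM (adjusted p = 0.000167). Vav2, a relative of Vav1, rose 1.54-fold (adjusted p = 0.000815).

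The falls with the smallest adjusted p in that list were those of Tec, Camk4, Ppp3cc and Gab2. Tec, a relative of Txk, fell 1.8-fold, with 87.6 ± 9.52 CPM in sorafenib cells and 157 ± 5 CPM in control cells (edgeR adjusted p = 0.000119). Camk4, a calcium-dependent kinase, fell 1.58-fold, with 110.0 ± 6.31 and 174 ± 9.19 CPM (adjusted p = 0.000199). Ppp3cc, a catalytic subunit of calcineurin, fell 1.37-fold, with 95.9 ± 3.73 and 132 ± 1.66 CPM (adjusted p = 0.000876). Gab2, a docking adaptor, fell 1.55-fold (adjusted p = 0.00105). By role, 4 rose and 3 fell of 22 kinases, adaptors and scaffolds, 3 rose and 1 fell of 20 effectors, 2 rose and 2 fell of 15 calcium and calcineurin genes, and 0 rose and 3 fell of 15 further negative regulators, where 8.51% of all tested genes rose and 9.43% fell. Of the last 15, 3 were higher at an unadjusted p under 0.05 by edgeR, and 0 passed as higher by DESeq2 or limma-voom. The constant genes of the receptor's α and β chains were on the list, but 0 could be tested. The symbols Trac and Trbc2 were not in the count table.

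**Figure D4:**
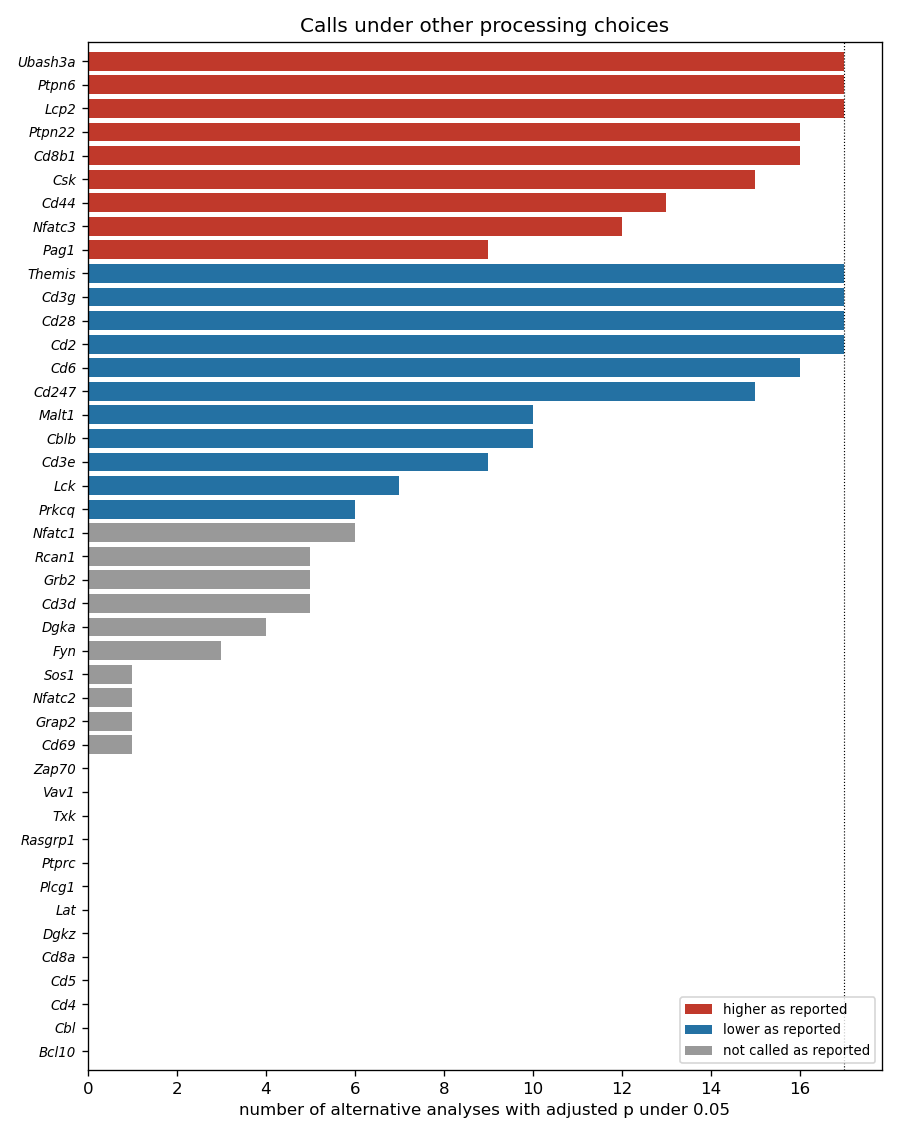
Number of the 17 alternative analyses (other scalings, filters, tools, units, a replicate block and each library left out) in which each of the 43 genes had an adjusted p under 0.05, by its result as reported. The bars reach 17, the dotted line, for 7 of the 20 called genes; Prkcq and Lck have the shortest bars of them, and 13 of the 23 others were called under none. Cd8a and Pag1 had a value in fewer than 17.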

How the data were processed

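For 6 libraries, 3 of sorafenib-treated and 3 of control cells by their titles, the authors deposited one table of counts per gene, in whole numbers, and another of FPKM. Per the labels' protocols, TRIzol was used for RNA extraction and a VAHTS Universal V5 kit for the libraries. The submitters' processing notes name fastp, HISAT2, HTSeq, R 3.2.0, DESeq2 and GRCm39 without giving their roles, and neither the strand setting nor the treatment of multiply matching reads is given in the sources used here. Exons annotated by GENCODE on GRCm38 overlap another measured gene for 4 of the 43 genes (Cd247, Lcp2, Nfatc3 and Dgka). The deposited FPKM was the count divided by gene length and by the library's total, so it carries no separate information on the comparison.

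The count table was filtered with filterByExpr to 13255 genes, scaled with TMM and compared by edgeR 4.0.16 in R 4.3.3 (robust quasi-likelihood F test, 4 residual degrees of freedom, group as the only term), with Benjamini-Hochberg adjustment over all tested genes and a threshold of 0.05. Standard errors come from the F statistic. CPM are TMM-scaled, and errors are SD over 3 libraries unless marked SE. Ratios between genes were compared with an exact two-sided permutation test. Intervals are not given for counts, and the floor of 3 counts covers counting error only.

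The 43 genes, the other pathway genes, the markers and the tests were chosen with earlier results of these data known. Values per library are given for each called gene and each gene of the receptor, coreceptor, kinase and NFAT groups, and means or folds for the 4 other pathway genes per direction with the smallest adjusted p, of which 1 is not reported here. The 17 alternatives were DESeq2 size factors, total counts, no filter, CPM of at least 1 in 3 libraries, DESeq2 1.42.0, limma-voom (limma 3.58.1), a replicate block, leaving out each library in turn, limma on log2(FPKM + 1) for genes at a mean FPKM of at least 0.5 or for all genes, limma on log2(FPKM + 0.1) for genes past that mean, and removal of the trend on gene length. Replicate numbers did not pair the libraries.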

Additional observations from a re-analysis of the deposited data

How the results depend on the processing

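Of 726 values of the 43 genes under the alternatives, 617 kept direction and side of the threshold, 65 lost the call, 32 gained one and 12 changed sign. Rises stayed within 1.5 times the reported 9 in the alternatives other than leaving out a library. Falls, reported as 11, numbered 6 with total counts, 6 on log2(FPKM + 1) and 6 on log2(FPKM + 0.1) with the filter, and 4 on log2(FPKM + 1) without it. Over all tested genes the falls, reported as 1250, were 826, 744, 737 and 520 in the same order. DESeq2 gave 10 rises and 13 falls among the 43, with 18.5% of all tested genes called. Removal of the length trend gave 13 and 13, with 24.1% of all tested genes called. With 1 library left out, rises ranged over 3 to 14 and falls over 5 to 15. For the other pathway genes, reported as 9 and 9, the ranges were 7 to 15 and 4 to 18, with 17 rises after removal of the length trend and 4 falls on unfiltered FPKM. Over all tested genes the percentage called was 31.8 without control replicate 2 and 9.15 without sorafenib replicate 3. Causes were not tested.

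Sign changes were confined to genes not called, among the 43. Ptprc, slightly lower in the reported fit, was at 0.035 with total counts and at 0.037 in each of the 3 FPKM fits, and spanned -0.079 to 0.021 with 1 library left out. The same span was -0.17 to 0.69 for Cd8a, -0.11 to 0.13 for Txk, -0.063 to 0.12 for Rasgrp1, -0.024 to 0.14 for Bcl10 and -0.16 to 0.20 for Cbl. Log2 differences in ratios with 1 library left out were -0.14 to 0.029 for Cd3g/Cd3e, -0.11 to 0.16 for Cd3d/Cd3e, -0.14 to 0.043 for Cd247/Cd3e, -0.18 to 0.63 for Cd8b1/Cd8a and -0.22 to 0.64 for Cd8a/Cd4.

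With the replicate block 10 genes rose and 9 fell, 18 of them among the 20 reported (without Lck, adjusted p = 0.104, and Prkcq, 0.0782), and over all genes 1031 rose and 1108 fell. Same-numbered libraries correlated at -0.06, 0.15 and 0.10 in their deviations from the group means, and not every library correlated best with its own number. The numbers are not read as a pairing, but correlations over 3 libraries a group cannot exclude one. Depth limits Cd8a, at 7 to 23 counts a library.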
